A study of Drosophila melanogaster with 2 samples.

Results

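A set of 9 genes of insulator and core promoter factors of Drosophila melanogaster was examined for sites of GFP immunoprecipitation: Trl, Dref and M1BP, which encode factors that bind promoter elements, BEAF-32, CTCF and su(Hw), which encode insulator proteins that bind DNA, and Chro, Cp190 and mod(mdg4), which encode partners of such proteins. These 9 of 13968 protein-coding genes were chosen by name and with the peak lists already known, so the pooled signals of their strongest sites are given as a description. Both libraries came from 1 group, whole adult males of a stable transgenic line that carries CG5204 (kmg) with GFP at the C terminus of the protein. The labels number them as biological replicates 1 and 2, and the age of the flies is listed as unknown. Chromatin was sonicated to 200 to 800 bp. The possible control experiment that the labels name was not read separately here, but a deposited note traces the authors' peak lists to alignments that include controls. Whole males mix all tissues, so a site cannot be assigned to a cell type, and the labels do not state which promoter drives the fusion.

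Kmg has zinc fingers and is known for its work in spermatocytes of the testis. Insulators are DNA elements that separate neighbouring regulatory domains and often lie beside promoters of constitutively expressed genes. In flies several DNA-binding proteins share this work and recruit common cofactors, among them Cp190, mod(mdg4) and Chro. Dref, M1BP and GAGA factor, the product of Trl, bind core promoter elements, the first pair mostly at housekeeping genes and GAGA factor often at promoters with paused polymerase.

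The stretches below show the places on which the results turn, as reference Release 6 sequence (dm6 coordinates, plus strand, 5′ to 3′, from the RefSeq copy of the assembly). In the 3 windows of 201 bases, 100 on each side of a summit, the 21 bases centred on the summit are in capitals. The other 3 are the gaps between start sites of divergent genes, where capitals mark CGATA, the word bound by BEAF-32. The summits at Chro and pre-mod(mdg4) lay just outside these gaps, in 5′ untranslated sequence, and the Dref gap is shown as the counterpart without a peak. None of the 6 overlaps an annotated exon.
Trl, strongest site, chr3L:14759387-14759587: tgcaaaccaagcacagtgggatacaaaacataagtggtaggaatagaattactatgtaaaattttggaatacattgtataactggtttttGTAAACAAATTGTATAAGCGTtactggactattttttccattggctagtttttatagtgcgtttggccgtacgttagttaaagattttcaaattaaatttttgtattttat
Trl, intronic site with its summit at 14756090, chr3L:14755990-14756190: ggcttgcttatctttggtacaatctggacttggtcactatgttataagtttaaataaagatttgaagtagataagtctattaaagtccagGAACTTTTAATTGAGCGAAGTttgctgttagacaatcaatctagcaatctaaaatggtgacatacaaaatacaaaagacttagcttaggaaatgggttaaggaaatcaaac
Chro and Ssl1, gap between start sites, chr3L:22878985-22879088: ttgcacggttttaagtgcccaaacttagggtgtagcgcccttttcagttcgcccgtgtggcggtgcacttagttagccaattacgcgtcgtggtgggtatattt
pre-mod(mdg4) precursors, gap between start sites, chr3R:21365489-21365608: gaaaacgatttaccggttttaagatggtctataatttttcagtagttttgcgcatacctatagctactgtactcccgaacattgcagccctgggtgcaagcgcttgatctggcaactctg
Dref and RpL13, gap between start sites, chr2L:9967230-9967312: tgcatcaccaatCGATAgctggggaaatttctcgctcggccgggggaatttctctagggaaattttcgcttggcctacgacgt
su(Hw) and Polr2I, site listed in replicate 1 alone, chr3R:14308827-14309027: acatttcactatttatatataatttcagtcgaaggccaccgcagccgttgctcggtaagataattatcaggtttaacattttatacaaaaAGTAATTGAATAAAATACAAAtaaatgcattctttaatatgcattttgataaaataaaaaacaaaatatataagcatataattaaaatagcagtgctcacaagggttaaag

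Sites were unevenly spread over the 9 genes. The authors' list of peaks that passed the irreproducible discovery rate (IDR) holds 2868 peaks, and 9 of their summits lay over the 9 genes or within 2 kb upstream: 5 at Trl, 2 at BEAF-32, 1 at Chro and 1 at mod(mdg4). A summit within 500 bp of an annotated transcription start site (TSS) of the gene itself, here a promoter peak, was present at Trl, BEAF-32 and Chro. That is 3 of 9 genes (33.3%, 95% Wilson interval 12.1 to 64.6), beside a background of 12.5% of all protein-coding genes. Where that background lies relative to the interval depends on the setting: it is just inside here, but with the same 3 genes it was 8.21% for a window of 200 bp, 8.03% for the strongest 50% of IDR peaks and 9.42% for IDR peaks whose false discovery rate did not exceed 5%, all below the interval, and 14.5% for a window of 1000 bp, inside it. The count was 5 of 9 without replicate 2, with su(Hw) and mod(mdg4) added and a background of 14.2%, and 4 of 9 without replicate 1, with Cp190 added and a background of 13.2%. Genes with more start sites have more places to count: Trl has 4, BEAF-32 and Chro have 3 each, Cp190 has 2 and the rest have 1. No background matched for start sites was drawn up. With 1 TSS per gene the count was 2 of 9 (BEAF-32 and Chro), beside 1513 of the 13968 protein-coding genes. With the whole gene and 2 kb upstream counted, 4 of 9 genes had a summit (44.4%, interval 18.9 to 73.3), beside 18.6% of all protein-coding genes. Long genes hold more summits, and the background by length is the closer one. In the fourth length quartile, genes over 4999 bp, it was 36.0%, and Trl, Chro and mod(mdg4) belong there. In the third quartile, with CTCF, su(Hw), Cp190 and Dref, it was 18.4%, and in the second quartile, with BEAF-32 and M1BP, it was 13.0%. The intervals cover counting error only, and since the genes were chosen with the peaks known, these shares support nothing beyond the listing itself.

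**Figure D1:**
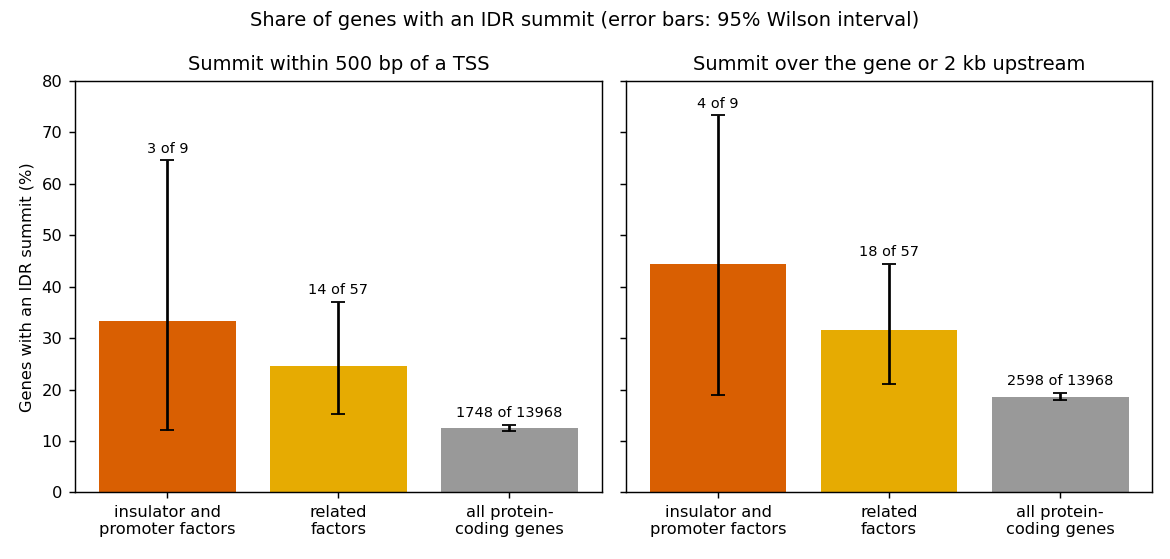
Share of genes with an IDR summit within 500 bp of a TSS (left) or over the gene or 2 kb upstream (right), in percent, for the 9 insulator and promoter factor genes, 57 related genes and 13968 protein-coding genes. Bars are shares and error bars are 95% Wilson intervals. At TSSs the share of the 9 genes is 33.3%, with an interval of 12.1 to 64.6%, and that of all protein-coding genes is 12.5%. The latter falls to between 8.03 and 9.42% with a narrower window or a stricter choice of peaks. It rises to between 13.2 and 14.5% with a window of 1000 bp or with 1 replicate left out. The 9 genes were chosen with the peaks known.

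Trl carried the strongest of these sites and the largest number of them. The gene lies on the minus strand of 3L from 14747929 to 14761049 and has 4 start sites. Of its 10 transcripts 7 begin at position 14757962, 1 begins at the 5′ end of the gene and 2 begin farther downstream, at 14757779 and 14757336. The strongest peak, from 14759321 to 14759715, had a signal of 1010.4, the unit of the authors' peak caller, and ranked 3rd of the 2868. Its summit at 14759487 lay 1562 bp downstream of the 5′ end of the gene and 1525 bp upstream of the start used by 7 transcripts. Only 1 of the 10 transcripts spans that position, as an intron. Replicate 1 had a signal of 506 there and replicate 2 had 504, with ranks of 4 and 5 among the 30000 regions of each list and summits 8 bp apart. Both libraries thus placed the site among their strongest and at nearly the same signal.

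The other sites in Trl were weaker and less even. The summit at 14757192 counts as the promoter peak of the gene. It lay 144 bp downstream of a start used by 1 transcript and 770 bp downstream of the main start, in a 5′ untranslated exon that all 10 transcripts share. Its signal was 214 in the pooled list, with 85.0 in replicate 1 and 122 in replicate 2. The same exon belongs to CG42507, an overlapping gene from 14747929 to 14757962 whose transcripts begin at the same main start, so the sites from there on downstream are shared by both genes. Farther downstream, the summit at 14756090, in an intron of all 10 transcripts, had a pooled signal of 264, and 131 in replicate 1 and 137 in replicate 2. A summit at 14756289, 199 bp from it, had a pooled signal of 116. Near the 5′ end of the gene, the summit at 14760436 had 78.8 pooled, with 25.7 in replicate 1 and 54.1 in replicate 2. It lay 613 bp inside the gene and close to the 3′ end of Tsen34, a tRNA splicing endonuclease gene that overlaps the 5′ end of Trl (14760520 to 14761844). In replicate 1 its false discovery rate was 0.162, and in replicate 2 it was 0.00156.

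The 5 summits of Trl spanned 4346 bp. Over all protein-coding genes, 0.358% had 5 or more IDR summits (50 genes), and 25 genes had more than Trl. Leaving both neighbouring intron summits as 1 site would give Trl 4. Trl is 13121 bp long and in the fourth length quartile, and long genes hold more summits. No background matched for length was drawn up for either count, and no share of genes was drawn up for 4 or more.

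**Figure D2:**
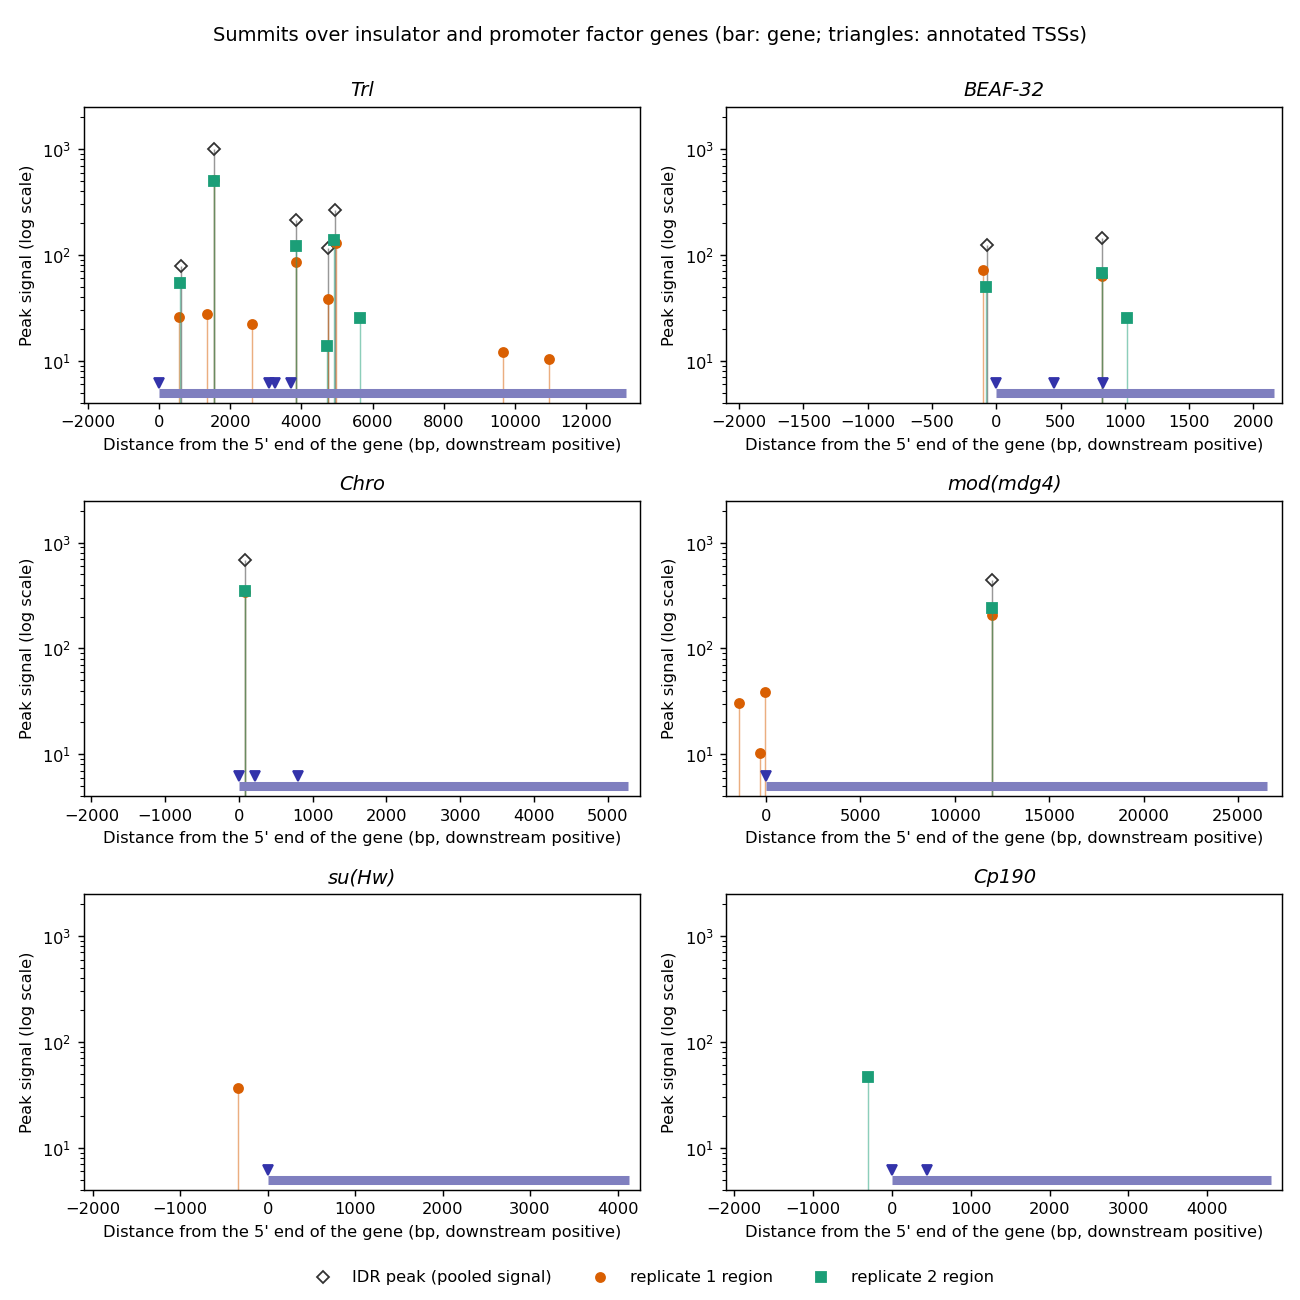
Peak signal (log scale) of IDR peaks and of the regions of each replicate against distance from the 5′ end of the gene in bp, for the 6 genes with any region in the IDR or replicate lists; the bar is the gene and triangles are annotated TSSs. The strongest site of Trl reaches 1010.4 between its first and its other start sites, the site of mod(mdg4) lies 11975 bp inside the gene, and su(Hw) and Cp190 have 1 region each, from 1 replicate.

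Dref and M1BP, the other genes of promoter element factors, had 0 regions over the gene or 2 kb upstream, in the IDR, pooled and replicate lists alike. Dref encodes the factor that binds the DNA replication-related element (DRE), and it lies on 2L from 9964147 to 9967229. Its start site is 84 bp from that of RpL13, a divergent gene of the large ribosomal subunit, and the nearest IDR summit was 36501 bp away with a signal of 66.5. M1BP encodes the protein that binds the core promoter element Motif 1, and lies on 3R from 8729790 to 8731698, 393 bp from the divergent gene CG8202. Its nearest IDR summit was 14833 bp away with a signal of 61.3. An empty stretch in all 4 lists was common, since 31.3% of protein-coding genes had none. The pooled and replicate lists hold 30000 regions each and include background, so the absence of a region says only that none of those regions lay there.

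BEAF-32 was the DNA-binding insulator gene with peaks. It encodes the boundary element-associated factor and lies on the plus strand of 2R from 14770469 to 14772630. It has 3 start sites with 1 transcript each, and 2 of the 3 had a summit within 100 bp. The first summit lay 73 bp upstream of the 5′ start, in a peak from 14770181 to 14770610 with a pooled signal of 124. Replicate 1 had 71.7 there and replicate 2 had 49.6. The other summit lay 7 bp upstream of the start at 14771301, in a peak from 14771079 to 14771508 with a pooled signal of 145. Replicate 1 had 62.9 and replicate 2 had 67.5. The pair was thus of like height in both libraries, and each peak sat at its own alternative start. Both summits also lay in exons of the antisense gene asRNA:CR42254, the second of them 1 bp inside its start, so the sense and antisense starts cannot be told apart by these peaks.

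CTCF and su(Hw) had no IDR peak. CTCF encodes the fly homologue of the vertebrate insulator protein of that name and lies on 3L from 7353578 to 7356713. Of the 4 lists, 0 held a region over it or 2 kb upstream, and the nearest IDR summit was 24993 bp away with a signal of 73.4. su(Hw), which encodes the zinc finger protein that binds the gypsy insulator, lies on 3R from 14304455 to 14308589. Replicate 1 listed 1 region 338 bp upstream of its start, with a signal of 36.5, a rank of 1679 and a false discovery rate of 0.0206. The summit was closer to the divergent gene Polr2I, a subunit gene of RNA polymerase II, at 162 bp upstream of its start. Neither replicate 2 nor the pooled list had a region there. The nearest IDR summit was 15637 bp from the gene, with a signal of 152.

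Chro had the strongest promoter peak of the 9 genes. It encodes a chromodomain protein of polytene interbands and lies on the minus strand of 3L from 22873702 to 22878984. The peak from 22878735 to 22879082 had a pooled signal of 692 and ranked 23rd. Replicate 1 had 344 and replicate 2 had 346, with summits 2 bp apart. The summit lay 78 bp downstream of the 5′ start, which 1 of the 5 transcripts uses, and 138 bp upstream of the start of 3 others. It was 183 bp upstream of the start of Ssl1, a TFIIH subunit gene on the other strand. By distance the peak was closer to Chro than to Ssl1. Of the 9 genes, 6 had a protein-coding neighbour with a divergent 5′ end within 1000 bp: Trl with Mgat4a at 979 bp, Chro with Ssl1 at 105 bp, su(Hw) with Polr2I at 500 bp, Cp190 with CG4338 at 281 bp, Dref with RpL13 at 84 bp and M1BP with CG8202 at 393 bp. Promoter peaks lay at 2 of these 6 (33.3%, Wilson interval 9.68 to 70.0). The background was 19.0% of the protein-coding genes with such a neighbour, which lies inside that interval. The promoter peak of Trl was at a start away from Mgat4a. Tsen34, which overlaps the 5′ end of Trl, has its own 5′ end between those of Trl and Mgat4a. Without Trl, Chro alone of these genes had a promoter peak.

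Cp190 encodes a BTB domain cofactor that joins several insulator complexes, and it lies on 3R from 15270432 to 15275241. It had no IDR peak. Replicate 2 listed 1 region 302 bp upstream of its 5′ start with a signal of 46.9, a rank of 1190 and a false discovery rate of 0.0113. That summit lay 21 bp inside the divergent gene CG4338, in its 5′ untranslated region. Replicate 1 and the pooled list had none. The nearest IDR summit lay 19710 bp from the gene, with a signal of 91.4.

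The peak at mod(mdg4) lay far from the start of the gene itself and beside starts of its precursor genes. mod(mdg4) encodes a BTB domain cofactor of su(Hw), and many of its isoforms are known to be joined by trans-splicing from separate precursor transcripts of both strands. It lies on the minus strand of 3R from 21350846 to 21377401, and its 22 annotated transcripts share 1 start. The peak from 21365246 to 21365604 had a pooled signal of 443 and ranked 69th, with 205 in replicate 1 and 239 in replicate 2 and summits 9 bp apart. Its summit lay 11975 bp downstream of the mod(mdg4) start, in an intron. The annotation lists 23 pre-mod(mdg4) genes with 7 start sites, and 10 of these genes had a start within 500 bp of the summit. Of those 10, 7 are on the plus strand and start 183 bp from the summit (pre-mod(mdg4)-U, -V, -W, -X, -Y, -AD and -AE), which leaves the summit upstream of them. The other 3 are on the minus strand. pre-mod(mdg4)-C and -AB start 136 bp from the summit, which again lies upstream, and 1 start of pre-mod(mdg4)-E lies 62 bp from it with the summit inside its first exon. The gap between the divergent starts, printed above, is 120 bp long. At the other 4 start sites no region of any dm6 list lay within 500 bp.

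At the start of mod(mdg4) itself, replicate 1 listed a region 49 bp upstream with a signal of 38.7, a rank of 1536 and a false discovery rate of 0.0147. Replicate 2 and the pooled list had none within 300 bp. Replicate 1 also had a weak region 1436 bp upstream (signal 30.5, false discovery rate 0.0697), which lay 140 bp upstream of tin, the heart development gene. The sites of su(Hw), Cp190 and the mod(mdg4) start were thus each listed by 1 replicate alone at a false discovery rate below 0.05. Over the genome, 158 of 1967 regions of replicate 1 at that rate had no region within 300 bp in the pooled list or in replicate 2, and 60 of 1718 regions of replicate 2 had none in the pooled list or in replicate 1. Whether signal at these 3 starts falls short of the lists or is missing in the other replicate was not tested.

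All 9 summits of the IDR list over these genes had a region within 100 bp in both replicates, beside 88.0% of all IDR peaks (2523 of 2868). That share is not matched for signal, and all 9 were above the median IDR signal. The replicate lists include background. The match at 14760436 in replicate 1 had a false discovery rate of 0.162, and that at 14756289 in replicate 2 had 0.638. The ratio of replicate 1 to replicate 2 signal was between 0.854 and 1.00 at the 3 strongest summits, which lie in Trl, Chro and mod(mdg4). It was 1.45 and 0.933 at BEAF-32. Both other extremes were in Trl, with 0.474 at 14760436 and 2.78 at 14756289. Over all matched IDR peaks the median ratio was 0.961 (quartiles 0.745 and 1.21), and 11.6% differed more than 2-fold. At 14756289 replicate 2 had only 13.8, at a false discovery rate of 0.638, against 38.3 in replicate 1, at 0.0163. The sum of both was 52.0, well short of the pooled signal of 116, so the replicate regions do not account for the pooled value.

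**Figure D3:**
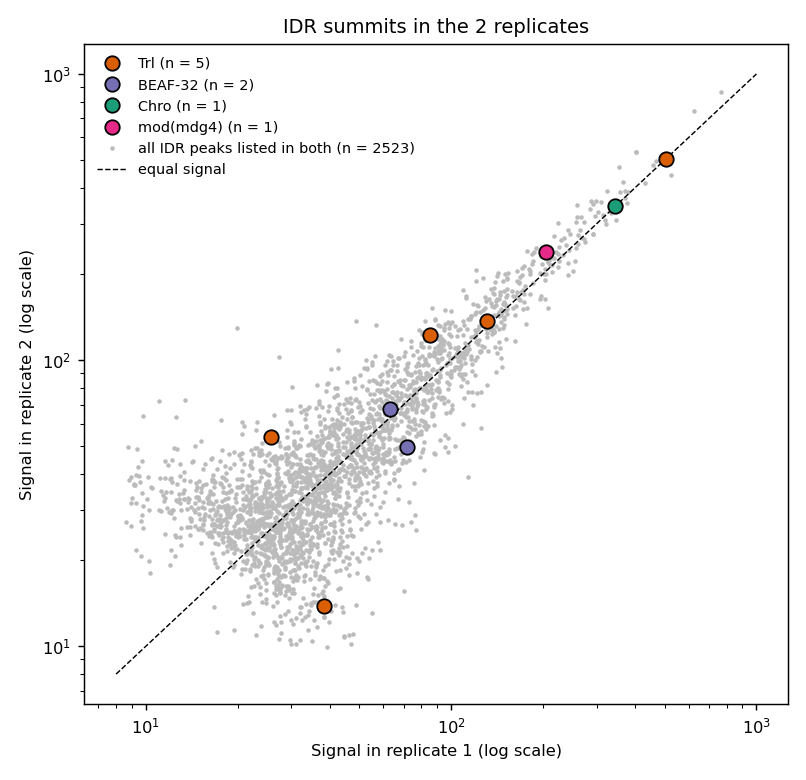
Signal in replicate 2 against replicate 1 (log scales) for the 9 IDR summits over Trl, BEAF-32, Chro and mod(mdg4), and for all 2523 IDR peaks listed in both replicates; the dashed line marks equal signal. The strong sites of Trl, Chro and mod(mdg4) lie near the line, and the weaker sites of Trl scatter on both sides of it.

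The 9 summits covered the upper range of the list. Trl ranked 3rd, Chro 23rd and mod(mdg4) 69th. The next in Trl ranked 204 and 299, the summits of BEAF-32 ranked 575 and 718, and the last ones in Trl ranked 786 and 1303. The weakest thus had a signal of 78.8, and the median over all IDR peaks was 73.0. The lowest IDR signal was 42.5, and the strongest pooled region left out of the list also had 42.5.

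**Figure D4:**
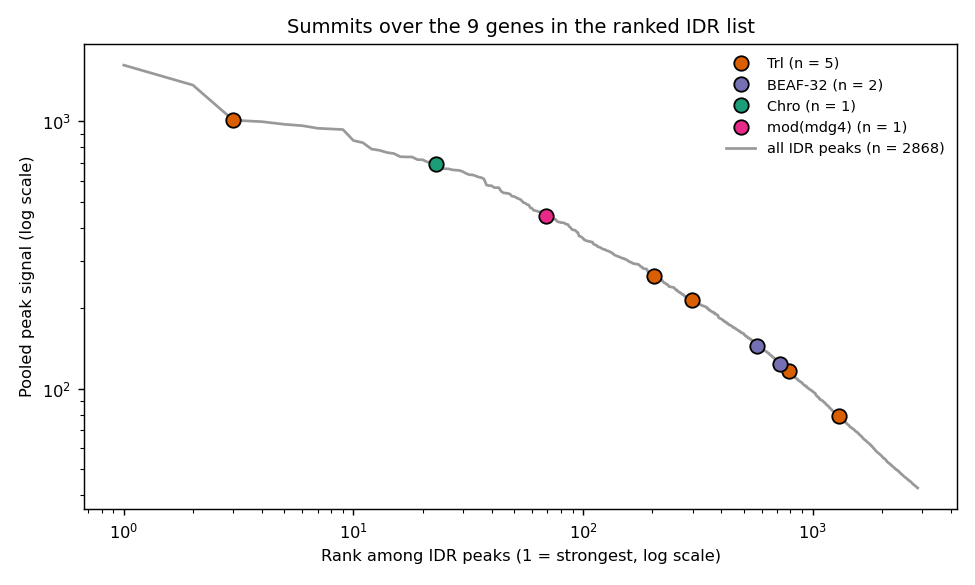
Pooled peak signal against rank among the 2868 IDR peaks (both log scales), with the 9 summits over Trl, BEAF-32, Chro and mod(mdg4) marked on the curve of all peaks. The strongest site of Trl ranks 3rd, and the weakest of the 9 ranks 1303.

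The words that these factors bind were found at 2 of the 9 summits. Both strands were searched within 100 bp of each summit. The word for the DRE was TATCGATA, and that for BEAF-32 was CGATA, which every DRE contains. GAGA factor was given GAGAG, M1BP was given GGTCACACT, the core of the CTCF site was AGNNGGCGC, and the core of the Su(Hw) site was TTGCATAC. The window of the BEAF-32 summit at 14771294 held 1 CGATA, and so did that of the Chro summit. CGATA lay at 28.5% of all IDR summits and at 39.3% of the 5′ ends of protein-coding genes, in windows of the same length. The other 5 words lay at 0 of the 9 summits. GAGAG lay at 22.1% of all IDR summits and at 22.5% of gene 5′ ends, and the DRE at 3.14% and 7.83%. GGTCACACT lay at 0.872% and 5.28%, the CTCF core at 3.0% and 1.86%, and the Su(Hw) core at 1.32% and 0.501%. A match is a description of letters, and the absence of a word says nothing of the factor. In the printed gap between Dref and RpL13, where no peak lay, CGATA occurred once.

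Other genes of the same machinery, 57 found of 58 listed by role, had promoter peaks in 14 cases (24.6%, 95% Wilson interval 15.2 to 37.1), beside the 12.5% of all protein-coding genes. No test was made of this count, and no background matched for gene length or number of start sites was drawn up. The related genes were chosen with earlier results of these data known, so their share supports nothing beyond the listing itself. Genes of factors that bind promoter DNA had 5 of 9, those of core promoter machinery 3 of 14, those of insulator cofactors 2 of 10, those of coactivators of housekeeping genes 2 of 7, those of insulator DNA binding 1 of 10 and those of cohesin and condensin 1 of 7.

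Among the promoter DNA-binding factors, row had a signal of 286 with its summit 100 bp upstream of a TSS, and psq, whose product binds GAGA repeats, had 207 at 78 bp upstream. gfzf, which encodes a partner of M1BP, had 133 at 219 bp upstream and shares its peak with Sas-4. The summit of that peak lay in a coding exon of CG2656. pho, a Polycomb recruiter gene on chromosome 4, had 67.7. grh had 47.6 at a false discovery rate of 0.16, with a region matched in replicate 2 alone, and shares its peak with asRNA:CR45270. In the core machinery, the pausing factor gene Nelf-E had 249 and shares its peak with RpL14, TfIIA-L had 211 and shares with pll, and TfIIA-S had 93.7.

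Of the cofactors, shep, whose product acts against the gypsy insulator, had 205, with 98.2 in replicate 1 and 106 in replicate 2. The histone kinase gene JIL-1 had 106, with its summit 19 bp upstream of a TSS. The condensin II gene Cap-H2 had 118 and shares its peak with MED7. The coactivator genes with a peak were Rcd5 and nsl1. All 7 coactivator genes listed are from the nonspecific lethal (NSL) complex, so membership does not set these apart. Rcd5 had 90.5 and shares its peak with CG11593, with the summit in the 5′ untranslated region of that gene. nsl1 had 49.5 at a false discovery rate of 0.134, with a region matched in replicate 1 alone. Clamp, whose product binds GA-rich DNA and is listed with the insulator DNA-binding factors, had 64.5 at 370 bp downstream of a TSS. Set beside the promoter peaks of the 9 genes, all 14 were below that of Chro (692), row and Nelf-E were above that of Trl (214), and these and TfIIA-L, psq and shep were above both of BEAF-32 (145 and 124).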

How the data were processed

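Sites of GFP immunoprecipitation in 2 libraries of 1 group were read from the authors' narrowPeak lists on build dm6: 30000 regions, background included, for each replicate and for the pool of both, and the IDR list of 2868 peaks. The signal of each region was deposited by the authors, without a stated scale, and so was the −log10 of its q-value, from which the false discovery rate was computed. Depth is unknown, because read totals, like the names of aligner and peak caller, are not stated in the labels. A text note deposited with each replicate traces the lists to the alignments of both replicates plus controls. The dm3 lists were not used.

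Positions are 1-based. Genes and TSSs came from Ensembl release 115 (18277 genes without transposable elements, 13968 protein-coding), in Release 6 coordinates, the assembly named dm6. A peak counted as a promoter peak up to 500 bp from a TSS, regions were matched between lists within 100 bp, and 58 related symbols were looked up, 1 of them found through a RefSeq synonym. The 9 genes, the related genes and the words searched were chosen with earlier results of these data known. Named were the 9 genes, the genes sharing their peaks and each related gene with a promoter peak. The count of divergent neighbours and the sites missing from the pooled list were added after the data were seen. No test was made, since the genes were chosen with the readout known and there is 1 group. Replicates are biological by label, with no statement of separate cultures.

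The software was Python 3.11.15 and its packages matplotlib 3.10.9, pandas 2.3.3, numpy 2.4.6 and scipy 1.17.1. The distance code was tested on simulated summits.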

Additional observations from a re-analysis of the deposited data

How the results depend on the processing

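The promoter peaks of BEAF-32 and Chro were present under each alternative tried, and that of Trl under all but 1 TSS per gene, where 2 genes were left, since its summit lies at an internal start. In that setting 1513 of the 13968 protein-coding genes had a promoter peak. With a window of 200 or 1000 bp, the strongest 50% of IDR peaks, or a false discovery rate of at most 5%, Trl, BEAF-32 and Chro were found. Without replicate 1 or replicate 2, that is in the 2868 strongest regions of the other, the count was 4 and 5: replicate 2 alone added Cp190, and replicate 1 alone added su(Hw) and mod(mdg4). All protein-coding genes with a promoter peak numbered 1147 with a window of 200 bp and 1121 among the strongest 50% of IDR peaks, against 1748, and related genes numbered 9 with 200 bp, against 14. Of the 9 summits, 8 had matching regions in both replicates by overlap of at least 50% of both intervals. Other counts stayed within 1.5 times. Depth is unknown, and a site missing from a list was not shown to be absent, only not listed there. No paired analysis was possible because there is 1 group.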

Other observations

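Replicate signals added up to nearly the pooled value at most IDR peaks, with a median ratio of 0.992. The summit at 14756289 in the Trl intron was the exception, with a ratio of 0.448, and no other of the 2523 IDR peaks matched in both replicates had a ratio under 0.5. Its region ends at the summit and lies inside the peak of the summit 199 bp away, and 3.91% of IDR peaks had another summit within 200 bp. Base composition also varied among the 9 summits: GC content within 100 bp was 27.4% at mod(mdg4), 29.4% at the strongest site of Trl and 38.3% at Chro, and 46.8% at the untranslated exon of Trl, where the median over IDR summits was 34.8% (quartiles 30.8 and 39.8).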
